A study of Mus musculus with 19 samples.

Results

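Interneurons of the hippocampus are told apart by the peptides and calcium-binding proteins they make. Here 10 such genes were followed in bulk RNA from the CA1 region: Sst, Cort, Npy, Vip, Cck, Penk, Pdyn, Tac1, Crh and Pvalb. They were picked by symbol through their Ensembl identifiers in GENCODE release M21, and they are 10 of the 48709 genes in the count files. All 10 had counts in these files and all 10 passed the filter on low counts, which kept 19297 genes. The mice were 7 months old, and the 19 libraries made 3 groups. WT control (n = 6) were littermates without the transgenes. APP control (n = 6) were APPPS1-21 mice, whose transgenes, human APP with the Swedish mutation among them, are driven by Thy1 promoter sequence. APP anti-miR-mix (n = 7) were APPPS1-21 mice that received lipid nanoparticles with inhibitors of 3 microRNAs (miR-148a-3p, miR-146a-5p and miR-181a-5p), and they are called treated mice below. Every animal had nanoparticles injected into the dorsal hippocampus, and the study describes both control groups as given a control oligonucleotide. The titles of the wild-type libraries carry the name of the mixture next to the word control, so their injection rests on the description in the study. The Thy1 promoter acts mainly in neurons, so the model expresses its transgenes there.

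Most of these genes encode prepropeptides, which are cut in dense-core vesicles and released by GABAergic neurons together with GABA. Somatostatin and neuropeptide Y mark dendrite-targeting cells such as the O-LM and neurogliaform types, VIP marks cells that inhibit other interneurons, and CCK marks a class of basket cells but is also made by pyramidal neurons. Parvalbumin is not a peptide but a cytosolic calcium buffer of fast-spiking basket cells. Dynorphin and part of the enkephalin of the hippocampus come from granule cells of the dentate gyrus.

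The treatment consisted of short oligonucleotides that pair with the mature microRNAs, so their sequences define the third group. The microRNAs, from RefSeq on GRCm38.p6, are printed 5′ to 3′ with the seed, bases 2 to 8, in capitals.
miR-181a-5p: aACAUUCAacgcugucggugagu
miR-146a-5p: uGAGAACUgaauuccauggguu
miR-148a-3p: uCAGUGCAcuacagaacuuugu
The 3 seeds differ from each other. miR-181a-5p is encoded at chr1:137966468-137966490 and chr2:38852741-38852763, both on the plus strand. miR-146a-5p lies at chr11:43374435-43374456 and miR-148a-3p at chr6:51269829-51269850, both on the minus strand. The inhibitors are listed in the supplement of the study and are printed with the bases that pair with the seed in capitals.
Inhibitor of miR-181a-5p: actcaccgacagcgtTGAATG
Inhibitor of miR-146a-5p: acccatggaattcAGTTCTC
Inhibitor of miR-148a-3p: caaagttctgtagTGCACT
Control for the inhibitors: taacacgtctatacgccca
The inhibitors pair without a mismatch with bases 3 to 23 of the 23 bases of miR-181a-5p, bases 2 to 21 of the 22 bases of miR-146a-5p and bases 3 to 21 of the 22 bases of miR-148a-3p. The control oligonucleotide holds no match to the seed of any of the 3.

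Sites for the 3 seeds were looked for in the longest annotated 3′ UTR of each gene. Of the 10 genes, 1 held a match of 7 bases to any seed, against 34.9% of 15385 tested genes with a 3′ UTR. The 3′ UTRs of the 10 genes were between 156 and 1436 bases long, and the median over all these genes was 1161. The match was in Pdyn, which encodes the dynorphin precursor, at base 948 of 1436, for miR-148a-3p. A site of this kind was found in 14.9% of the 15385 genes. The 30 bases around it, at chr2:129687035-129687064 on the minus strand of GRCm38, are given with the match in capitals.
Pdyn, 3′ UTR: ggcccagcgtaTGCACTGgcactgggaagg
A match is a description of the letters and does not show that the microRNA acts there.

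Promoter windows of the genes that were lower in APPPS1-21 mice in at least 1 comparison are shown because cyclic AMP response elements (CREs) are known from peptide genes, Sst being the textbook case. The windows run from 250 bases before to 50 bases after the RefSeq start site. Capitals mark the CRE, TGACGTCA, or its core, TGACG, on either strand. The core lies inside the CRE, so each CRE holds the core as well.
Sst, chr16:23890795-23891094, minus strand: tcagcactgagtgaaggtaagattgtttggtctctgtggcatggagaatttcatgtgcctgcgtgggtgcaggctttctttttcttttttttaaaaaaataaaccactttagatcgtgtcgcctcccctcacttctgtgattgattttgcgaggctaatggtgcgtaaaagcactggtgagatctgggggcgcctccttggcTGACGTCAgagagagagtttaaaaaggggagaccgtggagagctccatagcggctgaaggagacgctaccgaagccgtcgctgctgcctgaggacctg
Cort, chr4:149126714-149127013, minus strand: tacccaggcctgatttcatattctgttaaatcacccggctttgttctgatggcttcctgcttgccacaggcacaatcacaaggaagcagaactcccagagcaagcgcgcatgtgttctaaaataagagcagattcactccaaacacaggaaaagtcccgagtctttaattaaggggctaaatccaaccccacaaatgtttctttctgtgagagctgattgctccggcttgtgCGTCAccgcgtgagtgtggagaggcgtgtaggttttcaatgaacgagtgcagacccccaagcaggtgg
Npy, chr6:49822460-49822759, plus strand: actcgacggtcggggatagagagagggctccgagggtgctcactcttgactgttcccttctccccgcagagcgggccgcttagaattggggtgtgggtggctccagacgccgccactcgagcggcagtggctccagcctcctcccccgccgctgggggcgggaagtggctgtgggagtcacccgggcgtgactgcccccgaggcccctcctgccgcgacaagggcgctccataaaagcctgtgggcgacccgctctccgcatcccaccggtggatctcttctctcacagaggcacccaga
Tac1, chr6:7554811-7555110, plus strand: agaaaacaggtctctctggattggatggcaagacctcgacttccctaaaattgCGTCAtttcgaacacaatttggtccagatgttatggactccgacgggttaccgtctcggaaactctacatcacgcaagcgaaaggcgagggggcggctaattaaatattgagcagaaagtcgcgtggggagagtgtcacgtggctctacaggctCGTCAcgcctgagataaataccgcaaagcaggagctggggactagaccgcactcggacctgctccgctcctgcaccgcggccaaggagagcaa
The complete CRE was present in the window of Sst, from -48 to -41 relative to the start site, and in 1.79% of the 32851 promoter windows of the table. The core alone was present in the windows of Cort and Tac1, and also in those of Vip and Cck, against 20.8% of all windows. The window of Npy held neither, nor did the windows of Pdyn and Pvalb, which have 2 start sites each. Searches for the AP-1 letters TGANTCA, held by 7.81% of windows, gave no match in any of the listed genes. The TATAAA box, held by 13.6%, was found in Vip. Windows were listed for 8 of the 10 genes, and Penk and Crh were not among them.

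Total counts ranged from 19362343 to 37018917 per library, so each gene was read by at least 26 normalized counts in every library (the lowest value was that of Crh in WT control, 26.6). Thy1, whose promoter drives the transgenes, had 19760 ± 966 normalized counts in WT control (n = 6, SD), 52110 ± 9953 in APP control (n = 6) and 49770 ± 4207 in treated mice (n = 7), and no APPPS1-21 library fell within the WT control range. The 9 CA1 markers on the list (Wfs1, Dkk3 and others) were all detected, and their summed level was between 53170 and 68720 normalized counts for WT control, 47530 and 60410 for APP control and 46100 and 56020 for treated mice. None of the 9 passed the threshold against WT control, 8 of 9 had a negative log2 fold change in APP control (median -0.12) and 7 of 9 in treated mice (median -0.25), and the part of this shift in the results below was not tested. Markers of choroid plexus, an epithelium that lies against the hippocampus, stood apart in WT control 5 and APP anti-miR-mix 6, which have mean log2 levels of 7.43 and 7.30 over 8 genes, whereas the other libraries were between 5.53 and 6.40. The deposited log2 table carried a whole number from 1 to 5 per library, called the adjustment number here, whose meaning is not stated.

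Levels per length gave the order of the 10 genes in CA1. In WT control, Sst was highest with 361 ± 52.7 RPKM (reads per kilobase of exon, scaled to the total count of the library; SD, n = 6) and ranked 38 among 19237 genes. Cck followed with 157.5 ± 12.6 RPKM, Npy with 71.5 ± 9.64 and Pvalb with 42.6 ± 6.70. With all exonic bases as the length, the libraries of each of these neighbours did not overlap. Penk, the enkephalin precursor, had a level of 15.8 ± 4.95 RPKM, Cort, the somatostatin-like cortistatin, 9.54 ± 3.17, and Vip 7.87 ± 1.19. Penk and Cort overlapped, as did Cort and Vip. Tac1, the precursor of substance P and neurokinin A, had 3.40 ± 0.319 RPKM. Crh, corticotropin-releasing hormone, and Pdyn were lowest, with 1.29 RPKM each, SD 0.392 and 0.294, and they did not differ beyond their spread. Both APPPS1-21 groups had the same order except that Vip stood above Cort and Pdyn above Crh, with Pdyn at 2.03 RPKM in APP control and 2.29 in treated mice. With the longest transcript in place of all exonic bases, Cck was 257 RPKM, Vip 10.6 RPKM and Tac1 5.84 RPKM, and Vip then stood above Cort and Pdyn, at 1.56 RPKM, above Crh. The WT control libraries of Sst, from 262.4 to 412.4 RPKM, and of Cck, from 221.3 to 281.9, then overlapped.

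**Figure D1:**
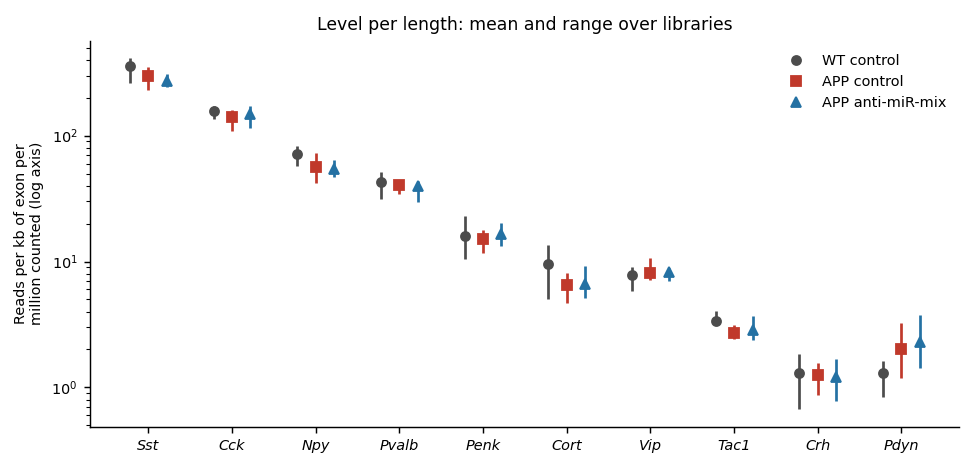
Level of each gene per length, in RPKM on a log axis, with genes on the horizontal axis in the order of WT control. Symbols are means and lines run from the lowest to the highest library of 6 WT control, 6 APP control and 7 APP anti-miR-mix libraries. Sst lies highest at 361 in WT control and Crh and Pdyn lowest at 1.29.

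In the comparison of APP control with WT control, which asks how the transgenes alter these genes, Npy and Tac1 were lower in APPPS1-21 mice and none of the 10 was higher. These were 2 of 10 genes called lower, where 1.05% of the 19297 genes tested were called lower and 3.66% higher (DESeq2, adjusted p under 0.05). Of all genes called there, 77.8% were higher with DESeq2, 86.5% with edgeR, which called 84 genes lower in place of 202, and 87.5% with total counts as size factors. Sst and Cort had lower means and Pdyn a higher mean without passing the threshold, and the calls of Sst and Cort depended on the model. Both passed when the libraries with high choroid plexus genes were left out, with the values given for each gene below. One of these libraries, WT control 5, was the lowest of its group for both genes. Without it alone both passed as well (DESeq2 adjusted p = 0.00187 for Sst and 0.00275 for Cort), so these fits do not single out choroid plexus. In fits added after the data were seen, Sst passed with the adjustment number as a factor (DESeq2 adjusted p = 0.0443) or a linear term (0.00450) and with limma on the deposited log2 table (0.0455), and Cort with the linear term (DESeq2 adjusted p = 0.0301). Vip, Cck, Penk, Crh and Pvalb did not pass either. With edgeR, which called 3.22% of genes, none of the 10 was called.

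The treated mice versus WT control compares APPPS1-21 mice given the inhibitors with littermates lacking the transgenes. Sst, Npy and Cort were lower and Pdyn was higher, so that 3 of 10 genes were called lower and 1 higher. The background was 3.36% of genes called lower and 5.59% higher. The share of higher genes among the calls was 62.4% with DESeq2, 75.4% with edgeR and 79.6% with total counts as size factors. edgeR called 6.06% of genes and, among the 10, Sst, Npy and Pdyn. This comparison and the previous use the same WT control libraries, and the values below are set side by side without counting either as support for the other.

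The treated mice versus APP control is the test of the inhibitors themselves. None of the 10 genes was called, and the background was 0.0% of the 19297 genes. Before adjustment 552 genes had p under 0.05 with DESeq2 and 572 with edgeR, which also called 0 genes after it. The adjusted p of each of the 10 was 1.0 (DESeq2). Among the log2 fold changes of the 10 genes, the lowest was that of Sst, -0.12 (95% interval -0.32 to 0.08), and the highest that of Pdyn, 0.17 (-0.27 to 0.61). The interval was -0.11 to 0.25 for Cck and -0.24 to 0.16 for Pvalb.

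**Figure D2:**
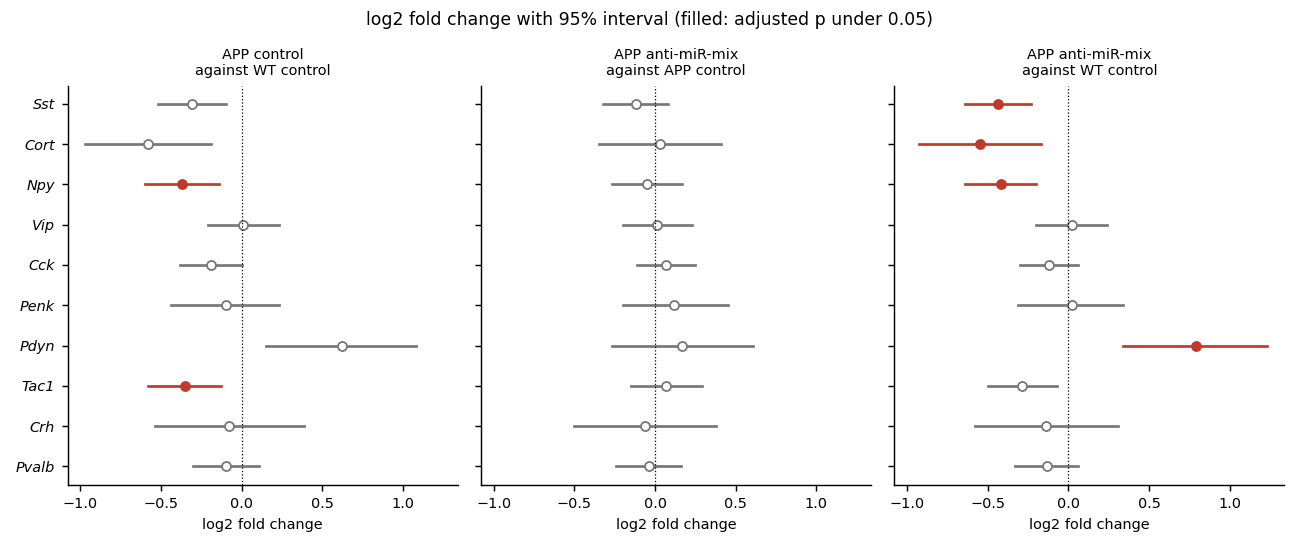
log2 fold change of each gene (horizontal axis) with its 95% interval (line) in the 3 comparisons, from DESeq2 on all 19 libraries. Filled red symbols passed an adjusted p of 0.05: Npy and Tac1 for APP control versus WT control, and Sst, Cort, Npy and Pdyn for APP anti-miR-mix versus WT control. In APP anti-miR-mix versus APP control every interval holds 0.

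Sst encodes somatostatin, an inhibitory peptide (ENSMUSG00000004366, chr16:23889573-23890958, minus strand of GRCm38, the build of all gene positions here). In WT control its lowest library had 5644 normalized counts, the median was 7963 and the highest 8536. In APP control the lowest, median and highest were 4821, 6232 and 7416, and in treated mice 5124, 5703 and 6382. The groups overlapped through WT control 5 alone, since the other 5 WT control libraries had 7603 or more and no APPPS1-21 library exceeded 7416. The mean was 7681 ± 1057 in WT control (n = 6, SD), 6185 ± 954 in APP control (n = 6) and 5678 ± 480 in treated mice (n = 7). APP control versus WT control gave a log2 fold change of -0.31 (SE 0.11, DESeq2 adjusted p = 0.0621). For treated mice versus WT control, Sst fell by 0.44 on the log2 scale (SE 0.10, DESeq2 adjusted p = 0.000737), with 3 of 7 libraries below all of WT control. In bulk RNA, fewer cells that make a peptide and less of its RNA per cell cannot be told apart, and this holds for every gene described here.

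WT control 5 had the lowest Sst of its group and the highest choroid plexus score. The 10 choroid plexus genes (Ttr, Enpp2 and others) had a summed level between 5872 and 10480 normalized counts for WT control, 4089 and 7643 for APP control and 5114 and 10260 for treated mice. None was at 0 in every library, and Folr1 and Otx2 were under the filter. Over 19 libraries, deviations of Sst from its group mean and those of the choroid plexus score had a correlation of -0.73, as a description of points that share library and depth. Without WT control 5 and APP anti-miR-mix 6, Sst fell by 0.39 in APP control versus WT control (DESeq2 adjusted p = 0.00237) and by 0.49 in treated mice versus WT control (DESeq2 adjusted p = 2.05e-05).

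Cort encodes cortistatin, a relative of somatostatin that binds its receptors (ENSMUSG00000028971, chr4:149125034-149126763, minus strand). The lowest, median and highest libraries had 101.8, 183.7 and 265.5 normalized counts for WT control, 91.8, 124.7 and 160.0 for APP control and 100.3, 117.6 and 179.3 for treated mice. The groups overlapped, and WT control 5 was again the lowest of its group. The means were 190.3 ± 60.8 (SD, n = 6), 126.7 ± 23.8 (n = 6) and 129.5 ± 28.8 (n = 7). The log2 fold change in APP control versus WT control was -0.58 (SE 0.20, DESeq2 adjusted p = 0.0652). With treated mice compared to WT control, Cort fell by 0.55 (SE 0.19, DESeq2 adjusted p = 0.0450), a call that edgeR did not make (adjusted p = 0.102) and that held in 12 of the 31 alternatives. Without WT control 5 and APP anti-miR-mix 6 Cort passed in APP control versus WT control too, where it fell by 0.71 (DESeq2 adjusted p = 0.00301).

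Npy encodes neuropeptide Y, which dampens glutamate release in the hippocampus (ENSMUSG00000029819, chr6:49822710-49829507, plus strand). Its lowest, median and highest libraries had 976.2, 1243 and 1353 normalized counts for WT control, 697.1, 929.6 and 1201 for APP control and 764.5, 919.5 and 1026 for treated mice. Of the treated APPPS1-21 libraries, 6 of 7 lay below all of WT control, as did 4 of 6 in APP control. Npy fell by 0.37 on the log2 scale in APP control versus WT control (SE 0.12, DESeq2 adjusted p = 0.0336), from 1195 ± 144 (SD, n = 6) to 924.8 ± 180.9 (n = 6). It fell by 0.42 in treated mice versus WT control (SE 0.11, DESeq2 adjusted p = 0.00427), where the treated mean was 893.5 ± 89.2 (n = 7). The call in APP control versus WT control was lost with edgeR (adjusted p = 0.0936) and with 11 further alternatives, 8 of which left out a single library. The call in treated mice versus WT control held in all 31 alternatives, as did that of Sst.

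Markers of the thalamus, which lies beneath the hippocampus, also moved with Sst and Npy. Deviations of the score of 10 thalamus genes had a correlation of -0.70 with those of Sst and -0.67 with those of Npy. The score was between 8.07 and 8.66 for WT control, 8.27 and 8.82 for APP control and 8.62 and 8.86 for treated mice. Of the 10 genes 1 was called higher in APP control versus WT control and 3 in treated mice versus WT control, with none lower. Their summed level was between 4133 and 6865, 4624 and 7544, and 5752 and 7434 normalized counts in the 3 groups, and none was at 0. The part of these cells in the results for Sst and Npy was not tested.

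Tac1 gives substance P and neurokinin A (ENSMUSG00000061762, chr6:7554879-7565834, plus strand). The lowest, median and highest libraries had 310.0, 333.9 and 414.7 normalized counts for WT control, 233.1, 261.8 and 308.1 for APP control and 231.0, 273.6 and 365.2 for treated mice. WT control and APP control did not overlap, by the narrow gap between 308.1 and 310.0, and 0.368% of all genes had APP control libraries that were all below WT control. The mean was 341.6 ± 37.7 (SD, n = 6) in WT control and 267.2 ± 31.7 (n = 6) in APP control. Tac1 fell by 0.35 in that comparison (SE 0.12, DESeq2 adjusted p = 0.0483). Among treated mice 6 of 7 libraries lay below all of WT control, the mean was 280.0 ± 49.2 (n = 7), and the log2 fold change against WT control was -0.29 (SE 0.11, DESeq2 adjusted p = 0.0864). The call of Tac1 in APP control was lost with edgeR (adjusted p = 0.104) and held in 12 of the 31 alternatives.

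Pdyn, the dynorphin precursor, was the gene of the set called higher in treated mice (ENSMUSG00000027400, chr2:129686565-129699844, minus strand). Its lowest, median and highest libraries had 73.1, 115.7 and 140.8 normalized counts for WT control, 98.4, 168.2 and 266.4 for APP control and 117.4, 180.3 and 313.9 for treated mice. In APP control 4 of 6 libraries lay above all of WT control, and 6 of 7 did among treated mice. The means were 109.9 ± 24.9 (SD, n = 6), 168.9 ± 58.2 (n = 6) and 190.4 ± 64.3 (n = 7). APP control versus WT control gave a log2 fold change of 0.62 (SE 0.24, DESeq2 adjusted p = 0.124). Pdyn rose by 0.79 in treated mice versus WT control (SE 0.23, DESeq2 adjusted p = 0.0101). Between the APPPS1-21 groups, where the seed match for miR-148a-3p in its 3′ UTR would bear on the inhibitors, the log2 fold change was 0.17 (95% interval -0.27 to 0.61, DESeq2 adjusted p = 1.0).

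Granule cells of the dentate gyrus make dynorphin, and dentate gyrus markers moved with Pdyn. The 11 markers (Prox1, C1ql2 and others) had a summed level between 5024 and 7459 normalized counts for WT control, 5159 and 8792 for APP control and 5004 and 8326 for treated mice, and none was at 0. Over 19 libraries the deviations of Pdyn and of the dentate gyrus score had a correlation of 0.64. None of the 11 markers passed the threshold in any comparison, and their median log2 fold change was 0.18 in APP control versus WT control and 0.03 in treated mice versus WT control. With the dentate gyrus score as a covariate, the log2 fold change of Pdyn was 0.69 in treated mice versus WT control (0.79 without it, DESeq2 adjusted p = 0.00544 with it) and 0.44 in APP control versus WT control (0.62 without it, DESeq2 adjusted p = 0.268 with it). Without APP anti-miR-mix 6, the library with the highest Pdyn, the value against WT control was 0.62 (DESeq2 adjusted p = 0.0501).

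Penk, the other opioid precursor in the set, varied widely in WT control (ENSMUSG00000045573, chr4:4133531-4138819, minus strand). Its WT control libraries ran from 497.2 to 1137 normalized counts with a mean of 765.7 ± 248.0 (SD, n = 6), against 713.4 ± 114.3 (n = 6) in APP control and 776.4 ± 127.2 (n = 7) in treated mice. The log2 fold changes against WT control were -0.10 and 0.02, and neither passed. Exonic positions of Penk overlap A830012C17Rik on the plus strand, and the strandedness of the counting is not stated, so reads of these genes cannot be told apart. The other 9 genes share no exonic position with another gene.

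Vip, Cck, Crh and Pvalb passed no comparison. Vip, a marker of interneuron-selective cells (ENSMUSG00000019772), had means of 791.3 ± 119.3 (SD, n = 6), 795.0 ± 129.7 (n = 6) and 801.7 ± 82.9 (n = 7) normalized counts in WT control, APP control and treated mice. Its 95% interval in APP control versus WT control was -0.21 to 0.23 on the log2 scale. Cck (ENSMUSG00000032532) had means of 6071 ± 386, 5323 ± 671 and 5582 ± 743, with a log2 fold change of -0.19 in APP control versus WT control (95% interval -0.38 to 0.00, DESeq2 adjusted p = 0.350). Crh (ENSMUSG00000049796), a stress peptide and the least counted of the set, had means of 50.4 ± 15.2, 47.4 ± 11.4 and 45.6 ± 13.4. Its 95% interval in APP control versus WT control, from -0.54 to 0.39, was as wide as that of Pdyn and wider than those of the other 8.

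Pvalb (ENSMUSG00000005716, chr15:78191114-78206400, minus strand) had 987.2, 1343 and 1546 normalized counts in the lowest, median and highest WT control library. The same values were 1053, 1272 and 1333 in APP control and 898.1, 1263 and 1318 in treated mice, so the groups overlapped widely. Its log2 fold change was -0.10 for APP control versus WT control (95% interval -0.30 to 0.11, DESeq2 adjusted p = 0.818) and -0.13 for treated mice versus WT control (95% interval -0.33 to 0.06, DESeq2 adjusted p = 0.518).

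**Figure D3:**
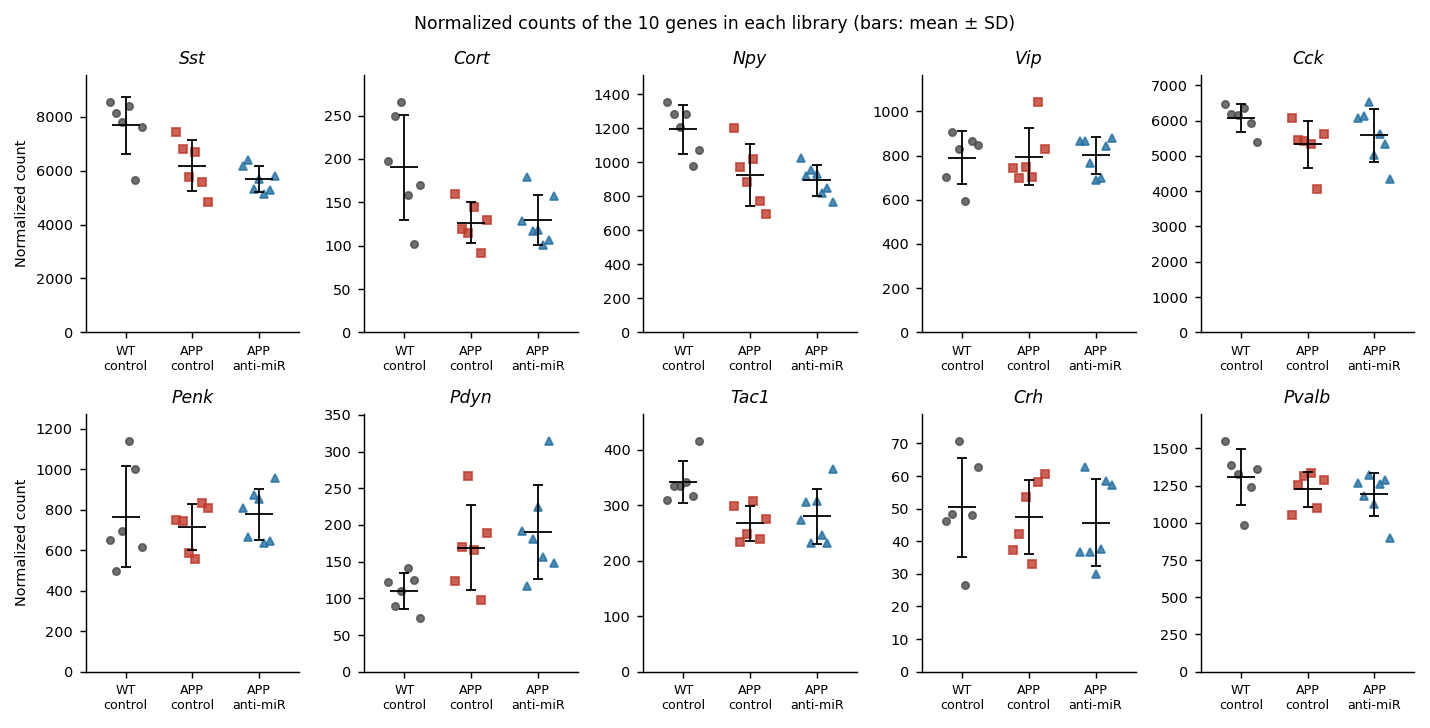
Normalized counts (vertical axis, from 0) of the 10 genes in every library, by group: WT control (circles, n = 6), APP control (squares, n = 6) and APP anti-miR-mix (triangles, n = 7). Black bars are the mean ± SD. WT control 5 lies apart below the other WT control libraries of Sst at 5644, and no APP control library of Tac1 reaches the lowest WT control value of 310.0.

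Genes of GABAergic neurons in general were compared in the same fit. In APP control versus WT control 4 of 12 genes were called lower and 0 higher, with a median log2 fold change of -0.16 against -0.01 over all genes tested. Gad1, which makes most of the GABA in these cells, fell by 0.30 (SE 0.08, DESeq2 adjusted p = 0.00292), from 11420 ± 934 (SD, n = 6) to 9285 ± 952 (n = 6) normalized counts. Gad2, the synaptic isoform, fell by 0.26 (DESeq2 adjusted p = 0.0287), and the transcription factor Dlx1 by 0.20 (DESeq2 adjusted p = 0.0258). Dlx6os1, a noncoding RNA of the Dlx locus, fell by 0.34 (DESeq2 adjusted p = 0.0139). For treated mice versus WT control, Gad1 and Dlx6os1 were called lower, with a list median of -0.15.

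Relative to that list within each library, Sst had a log2 excess of 2.78 ± 0.25 (SD, n = 6) in WT control, 2.63 ± 0.28 (n = 6) in APP control and 2.48 ± 0.14 (n = 7) in treated mice. For Npy the same difference was 0.10 ± 0.23, -0.11 ± 0.33 and -0.19 ± 0.22. For Tac1 it was -1.70 ± 0.14, -1.89 ± 0.16 and -1.87 ± 0.21. The shift of each of these genes against the list was thus smaller than its shift in normalized counts, and it was not tested. For Pdyn it was -3.36 ± 0.43, -2.61 ± 0.50 and -2.47 ± 0.52.

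Lists by developmental origin were split by medial and caudal ganglionic eminence (MGE, CGE), which give rise to the Sst and Pvalb cells and to the Vip and Cck cells. Of 14 MGE genes outside the 10, none was called lower in either comparison with WT control, and the list medians were -0.08 and -0.07. Kcnc1 and Satb1, the most counted MGE genes, did not pass. Of 15 genes on the CGE list 1 was called lower in each of the 2 comparisons with WT control, with list medians of -0.05 and -0.05. It was Crhbp, which is also known from Sst cells of MGE origin and is counted again on the receptor list.

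The receptor list held receptors and binding proteins for these peptides and for their relatives, such as PACAP and nociceptin. Of 25 listed 22 were tested, with 0 higher and 1 lower in APP control versus WT control. Crhbp, a secreted protein that binds CRH, fell by 0.41 (SE 0.09, DESeq2 adjusted p = 0.000201), from 1529 ± 167 (SD, n = 6) to 1149 ± 147.7 (n = 6) normalized counts. It fell by 0.49 in treated mice versus WT control (DESeq2 adjusted p = 7.67e-07). In that comparison the somatostatin receptor Sstr4 fell by 0.45 (DESeq2 adjusted p = 0.0306), from 881.2 ± 162.4 to 647.0 ± 141.9 (n = 7). Adcyap1r1, the PACAP receptor, rose by 0.25 there (DESeq2 adjusted p = 0.0160). The nociceptin receptor Oprl1 passed no comparison.

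Genes that process and store peptides were lower in part. In APP control versus WT control 3 of 18 were called lower and 0 higher, and 16 of 18 had a negative log2 fold change, with a median of -0.16. Scg2, a granin of dense-core vesicles, fell by 0.38 (SE 0.08, DESeq2 adjusted p = 0.000139), from 6030 ± 605 (SD, n = 6) to 4648 ± 340 (n = 6) normalized counts. The granin-like Vgf fell by 0.43 (DESeq2 adjusted p = 0.00277), and Cadps, which primes these vesicles, by 0.17 (DESeq2 adjusted p = 0.0202). With treated mice compared to WT control, Scg2 fell by 0.56 (DESeq2 adjusted p = 6.36e-11), and Vgf, Cadps, Cadps2 and Scg5 were also called lower, with a median of -0.12. The enzyme Cpe, the most counted of the list, had log2 fold changes of -0.02 and -0.03, and neither it nor Ptprn passed.

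Among 24 other neuropeptides and secreted factors, 16 were tested. In APP control versus WT control Pnoc, the nociceptin precursor of GABAergic cells, fell by 0.52 (SE 0.13, DESeq2 adjusted p = 0.00464), and the neurotrophin Bdnf fell by 0.40 (DESeq2 adjusted p = 0.0223). Igf1, a growth factor that reactive microglia also make, rose by 0.74 (DESeq2 adjusted p = 0.00113). For treated mice versus WT control, Bdnf was lower and Igf1 and Edn3, endothelin 3, were higher. The list medians were -0.05 and -0.05. Nxph1 and Grp, the most counted of this list, did not pass. Of 9 genes of perineuronal nets, the matrix around Pvalb cells, all 9 had negative log2 fold changes in both comparisons with WT control. Has3, a hyaluronan synthase, was called in both, and it fell by 0.50 (DESeq2 adjusted p = 0.000557) and 0.48 (DESeq2 adjusted p = 0.000323). The net protein Tnr was called in treated mice versus WT control, where it fell by 0.27 (DESeq2 adjusted p = 0.0178), and Bcan did not pass.

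**Figure D4:**
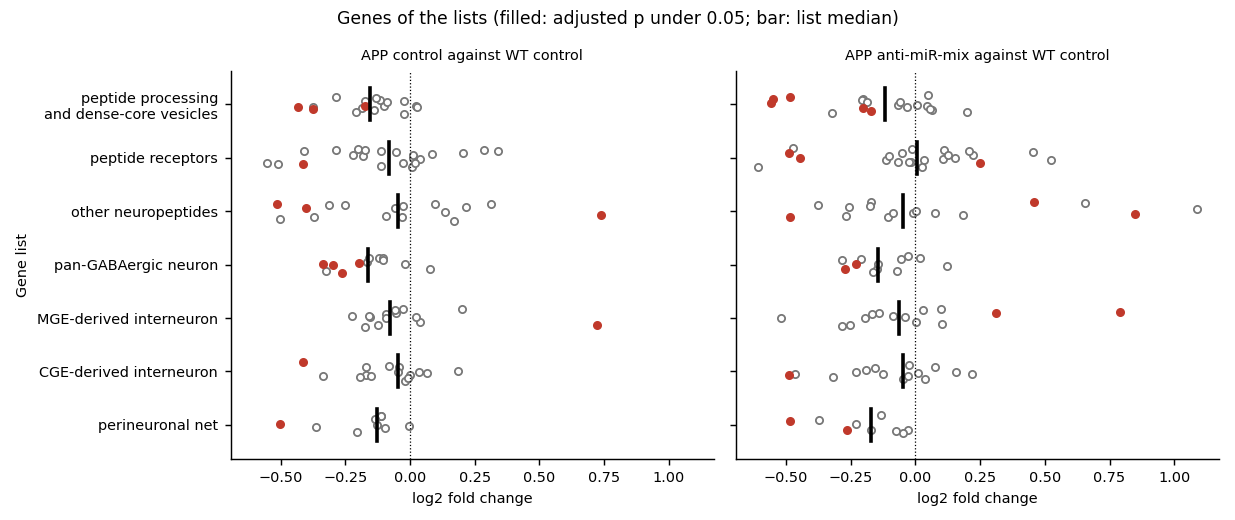
log2 fold change (horizontal axis) of each tested gene of 7 lists, without the 10 genes themselves, in APP control versus WT control (left) and APP anti-miR-mix versus WT control (right). Filled red symbols passed an adjusted p of 0.05 and black bars are list medians. The medians of the peptide processing list lie at -0.16 and -0.12 and those of the GABAergic list at -0.16 and -0.15.

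Genes induced by neuronal activity were also compared, since several of the peptide genes are known to be regulated by activity. In APP control versus WT control 7 of 16 were called lower and 0 higher, with a median of -0.40. Nr4a1 fell by 0.77 (DESeq2 adjusted p = 3.46e-08) and Fos by 0.63 (DESeq2 adjusted p = 0.00579). With treated mice compared to WT control, 10 of 16 were called lower, with a median of -0.47. The 16 genes had a mean log2 level between 9.14 and 9.52 for WT control, 8.78 and 9.09 for APP control and 8.44 and 9.10 for treated mice. Over libraries, deviations of this score had correlations of 0.35 with Npy, -0.01 with Sst, -0.45 with Cort, -0.62 with Tac1 and 0.02 with Pdyn. Glial genes of the amyloid response rose in both comparisons with WT control, 8 of 10 in each, with medians of 1.44 and 1.48. The part of neuronal activity and of glia in the peptide results was not tested.

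Members of the set were then compared with each other over the 19 libraries, after each group mean had been removed from the log2 values. Of 45 pairs, 3 had an adjusted p under 0.05 for Pearson's r and 8 an unadjusted p under 0.05 (permutation within groups, 100000 rounds, two-sided), and the median r was 0.01. Sst and Npy had the highest, r = 0.84 (permutation p = 4e-05, adjusted p = 0.0018), with Spearman's rho of 0.81 (permutation p = 0.00026, adjusted p = 0.0117). It was 0.76 without the 2 libraries farthest from the median, and 0.90 for WT control, 0.97 for APP control and 0.42 for treated mice. With a linear term for the adjustment number removed as well it was 0.72. Libraries with more Sst thus also had more Npy, while Tac1 and Npy had an r near 0.

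Vip and Crh had r = 0.74 (permutation p = 0.00069, adjusted p = 0.0155) and rho of 0.65 (permutation p = 0.00457, adjusted p = 0.0686), and r was 0.66 without the 2 farthest libraries. Penk and Pvalb went in opposite directions, with r = -0.69 (permutation p = 0.00209, adjusted p = 0.0314) and rho of -0.64 (permutation p = 0.00739, adjusted p = 0.0828), and r was -0.59 without the 2 farthest libraries. Of these 3 pairs, that of Sst and Npy passed on ranks as well. Markers of neighbouring regions moved with the genes of all 3 pairs, those of the thalamus with Sst and Npy (-0.70 and -0.67, as above). Deviations of the score of cortex and subiculum had correlations of 0.59 with Vip, 0.70 with Crh, -0.57 with Penk and 0.63 with Pvalb. For the list of GABAergic genes they were 0.66, 0.79, -0.27 and -0.03 in the same order. For striatum genes they were 0.67, 0.71, 0.01 and -0.12. The part of the cells behind these scores in the 3 pairs was not tested.

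**Figure D5:**
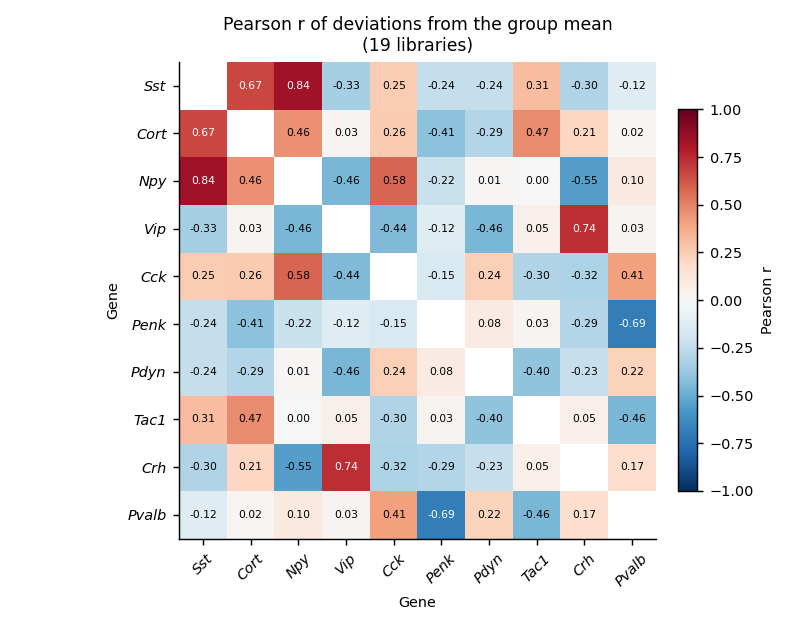
Pearson r, by colour and number, for each pair of the 10 genes on both axes, from deviations of log2 normalized counts from the group mean over 19 libraries. Sst and Npy have the highest value, 0.84, and Penk and Pvalb the lowest, -0.69.

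The closest patterns in the rest of the transcriptome were searched among 14082 genes with a mean of at least 50 normalized counts, over the same 19 libraries and deviations. For Sst they were Mrps15 (r = 0.90), Psmb6 (0.89) and Sorcs2 (0.89), and for Npy Ddost (0.92), Snx17 (0.91) and Atox1 (0.91). Pvalb was closest to Cntn2 (0.89), Vamp1 (0.88) and Stac2 (0.88), and Cort to Resp18 (0.85), Bms1 (0.83) and 6430548M08Rik (0.82). Pdyn was closest to Col4a6 (0.87), Hacd4 (0.84) and Glis3 (0.82), the last of which is on the dentate gyrus list. Tac1 was closest to Mcu (0.83), Ntng1 (0.80) and Ptpre (0.80). For Vip, Cck, Penk and Crh the first genes were Id2 (0.84), Sdf4 (0.91), Efcab6 (0.86) and Ctps2 (0.91). These are the highest of 14082 values each and are given as descriptions.

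The adjustment number was shared by all 3 groups at 4 of its values, which allowed the comparisons to be read within it. Each number held few libraries of any group, so the counts below are descriptions. Npy was below WT control in APP control at 4 of 4 numbers, by a mean log2 difference of -0.34, and in treated mice at 4 of 4 (-0.41). Sst was lower at 4 of 4 in both, by -0.24 and -0.40, and Tac1 was lower at 4 of 4 in both, by -0.29 and -0.23. Pdyn was higher at 4 of 4 in both, by 0.38 and 0.60. Cort was lower at 3 of 4 numbers in both. Cck, which passed no comparison, was lower at 4 of 4 in APP control (-0.20) and at 3 of 4 in treated mice (-0.15). Between the APPPS1-21 groups Sst and Npy were each lower at 3 of 4 numbers, by -0.15 and -0.07, and Tac1 and Pdyn were each higher at 2 of 4.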

How the data were processed

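RNA-seq was performed on the CA1 region of 19 mice, with 50 bp single-end reads, and the authors aligned reads to mm10 with STAR (2.5.2b) and counted them with featureCounts (Subread 1.5.1). Annotation release and strandedness are not given in the sources used here. The deposited files hold whole-number read counts for each Ensembl identifier without any scaling. The authors also deposited a log2 table of 18825 genes, scaled to library totals and adjusted further in a way not stated, which entered only as an alternative. Whether libraries of a group came from separate litters is not stated, and p-values measure the spread between these animals.

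A gene was kept when 50% of libraries or more had 5 counts or more (19297 genes). DESeq2 (1.42.0) was fitted to all 19 libraries with group as the only term, as the study's methods name this tool and filter, in place of edgeR (4.0.16) as first choice, which was run as an alternative. Wald tests, unshrunken log2 fold changes and Benjamini-Hochberg adjustment over all genes (threshold 0.05) were used. DESeq2 replaced an outlying count in 13 genes, none of the 10 described. Normalized counts are counts divided by DESeq2 size factors. Levels per length used all exonic bases of GENCODE M21. Between any pair of libraries of the same group the chi-square was 4.46 per gene or higher, so none was treated as a duplicate. A list's score averages log2(normalized count + 1) over its genes. Fits were tested on simulated data. R (4.3.3), limma (3.58.1) and Python were used. Reads carried no molecular identifiers.

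The 10 genes and all gene lists were chosen with earlier results of these data known. Named were the 10 genes, for each list at most 5 genes past the threshold per comparison by smallest adjusted p and the 2 most counted, the 3 genes most like each of the 10, and Thy1 and App. App is not described further, and some genes that the rule names are not reported here. A term for the adjustment number and limma on the log2 table were added after the data were seen.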

Additional observations from a re-analysis of the deposited data

Results flagged for a closer look

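Of 30 groups of values (10 genes in 3 groups), 4 held a library that Dixon's test at the 95% level set apart on the log2 scale, where chance gives about 1.5. Sst was low in WT control 5, with 5643.6 normalized counts against 7603.4 to 8536.4 in the other 5 libraries. Cck was low in APP control 5, with 4063.3 against 5346.5 to 6071.1. Tac1 was high in WT control 6, with 414.7 against 310.0 to 340.8, and without that library the log2 fold change of Tac1 in APP control against WT control was -0.29 (DESeq2 adjusted p = 0.190). Pvalb was low in APP anti-miR-mix 7, with 898.1 against 1129.5 to 1317.6.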

How the results depend on the processing

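The counts of the 10 genes called depended on the setting. In APP control versus WT control, the count was 2 (Npy, Tac1). It was 0 with edgeR, with total counts as size factors and with the dentate gyrus score as a covariate. It was 1 with TMM factors (Npy) and with only the 2 groups compared (Tac1), and it was 4 (Sst, Cort, Npy, Tac1) without both libraries with high choroid plexus genes and with a linear term for the adjustment number. With that number as a factor, and with limma on the deposited log2 table, the count was 2 as well but of Sst and Npy. Leaving out 1 library gave 0 to 4. Npy lost its call without WT control 1, 2, 3 or 4 (adjusted p = 0.0786, 0.0953, 0.0693 and 0.0899) or APP control 2, 3, 5 or 6 (0.0528, 0.0900, 0.0976 and 0.0791). Tac1 lost its call without WT control 2, 3, 4, 5 or 6, APP control 2, 3, 5 or 6 or APP anti-miR-mix 1, 2, 4 or 5, with adjusted p from 0.0502 without WT control 5 to 0.190 without WT control 6. Sst passed without WT control 5 (0.00187) or APP control 1 (0.0138), and Cort without these (0.00275 and 0.0338) or APP anti-miR-mix 2 (0.0488). Pdyn passed without APP control 5 (0.0342). In treated mice versus WT control, the count was 4, and it was 2 (Sst, Npy) with the adjustment number as a factor. Leaving out 1 library gave 2 to 5. Pdyn lost its call without APP anti-miR-mix 6 (0.0501), without both choroid plexus libraries (0.0530) and with the number as a factor (0.0541). Cort lost it without WT control 1, 2, 3 or 6, APP control 3, 4 or 6 or APP anti-miR-mix 1, 3, 4, 5 or 6, with adjusted p from 0.0502 without APP control 6 to 0.165 without WT control 3. It also lost it with edgeR (0.102), TMM factors (0.0523), total counts (0.0798), only the 2 groups (0.0580), the dentate gyrus covariate (0.0863), the adjustment number as a factor (0.0990) and limma (0.0680), and Tac1 passed without APP anti-miR-mix 7 (0.00790). The cause was not tested.

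Over all genes, treated mice against APP control called 0 genes, 1 with a minimum of 10 counts in every library of a group or the dentate gyrus covariate, 3 with only the 2 groups compared and 0 to 3 without 1 library. Without 1 library, APP control versus WT control called 666 to 1209 genes against 908, and treated mice against WT control 1169 to 2012 against 1727.

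Replicate numbers are shared between groups. Deviations of same-numbered libraries had correlations of -0.157 to 0.594 over 18 pairs (median 0.218, against -0.00895 over 102 pairs with different numbers), and 5 of 18 libraries correlated best with their own number. Since not every pair was above 0.1, the numbers were not taken to pair the animals. Libraries that share the adjustment number had a median correlation of 0.249 over 27 pairs, against -0.0656 over 93 others, and 11 of 18 correlated best with a library of their own adjustment number, which the main model leaves out. With the replicate block, 1222 genes and 4 of the 10 (Sst, Cort, Npy, Tac1) were called in APP control versus WT control, with adjusted p of 0.000275 for Sst and 0.0184 for Cort, 1 gene and 0 of the 10 in treated mice against APP control, and 2202 genes and 5 of the 10 in treated mice against WT control.

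Directions turned only for values near 0 that passed no test. With the replicate block, treated mice against APP control gave log2 fold changes of -0.03 for Cort, 0.00 for Npy, -0.01 for Vip, -0.01 for Tac1 and 0.02 for Pvalb, and Penk against WT control -0.01. Vip was -0.00 without both choroid plexus libraries and with the dentate gyrus covariate. Cort was -0.02 with the adjustment number as a factor, and Penk -0.05 against WT control. Crh in APP control versus WT control was 0.01 with the dentate gyrus covariate and 0.05 with the number as a factor. Without 1 library, values ran in APP control versus WT control from -0.08 to 0.05 for Vip, -0.21 to 0.05 for Crh and -0.20 to 0.04 for Penk. In treated mice against APP control they ran from -0.12 to 0.04 for Npy, -0.02 to 0.10 for Vip, -0.06 to 0.11 for Cort, -0.15 to 0.02 for Crh, -0.01 to 0.11 for Tac1 and -0.08 to 0.02 for Pvalb. Against WT control they ran from -0.05 to 0.06 for Vip and -0.08 to 0.16 for Penk.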
